A study of Mus musculus with 6 samples.

Results

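The transcription factor NRF2 (gene Nfe2l2), its inhibitor KEAP1 (Keap1) and 8 of their classical antioxidant target genes (Hmox1, Nqo1, Gclc, Gclm, Slc7a11, Txnrd1, Srxn1 and Gsr) were followed in primary mouse chondrocytes after knockdown of pyruvate kinase. The 10 genes were taken by name from the 55416 genes of the deposited table, and all 10 passed the filter on low counts that left 15269 genes for testing. Bulk RNA-seq was performed on 3 libraries of cells given a scrambled control siRNA (siNC) and 3 libraries of cells given an siRNA against Pkm2 (siPKM2). By the labels, the cells came from neonatal mouse knees and the siNC libraries were wild type, whereas the study's supplementary methods describe older mice. Those methods describe articular cartilage cells used without passaging. The genotype label reads PKM2 knockdown for siPKM2 replicate 1 and gives PKM3 and PKM4 for replicates 2 and 3, while all 3 titles read siPKM2 and were followed. Both groups were grown in the same serum-containing medium, and the labels name no other agent. The labels do not say whether libraries of a group came from separate animals or cultures, so p-values measure only the spread between these libraries, which may be technical.

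NRF2 is a basic leucine zipper factor that KEAP1 binds in the cytoplasm and hands to a ubiquitin ligase, so that little NRF2 protein is present in unstressed cells. Oxidants and electrophiles modify cysteines of KEAP1, NRF2 then accumulates, pairs with a small MAF protein and binds antioxidant response elements near its target genes. The targets supply cysteine and glutathione, reduce thioredoxin and peroxiredoxins, detoxify quinones and break down haem, and in cartilage the pathway is known for limiting oxidative damage. This control acts mostly on NRF2 protein, which was not measured here.

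The core of the antioxidant response element was sought in the promoters of the 10 genes, since the targets are grouped by this shared element. The letters searched were TGACNNNGC, a string of 9 bases, on both strands, in windows of 300 bases (250 before and 50 after each annotated start) from RefSeq on GRCm38.p6. Promoters of 7 of the 10 genes were in the table used, in 9 windows, and 4 of these genes held a match. The matches are shown with 10 bases on each side, in the direction of the gene and with the matched letters in capitals. Distances run to the first matched letter, and the one given after a start includes the start base itself.
Nfe2l2, chr2:75704885-75704913, minus strand, 240 bases before the start: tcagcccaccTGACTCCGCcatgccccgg
Gclm, chr3:122245413-122245441, plus strand, 134 bases before the start: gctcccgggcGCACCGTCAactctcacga
Txnrd1, chr10:82859104-82859132, plus strand, 92 bases before one of 3 annotated starts: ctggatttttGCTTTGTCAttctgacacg
Srxn1, chr2:152105542-152105570, plus strand, 29 bases after the start: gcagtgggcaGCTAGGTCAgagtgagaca
In Gclm, Txnrd1 and Srxn1 the match lay on the strand opposite to the gene. Of all 32851 promoter windows of this length, 12.4% held a match, and of the 27025 genes with such a window, 14.0% did. Among 47 other NRF2 target genes with a promoter in the table, 12 (25.5%) held one. The windows of Keap1, Nqo1 and Slc7a11 held no match, and more distant elements were not searched.

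The gene aimed at was lower in every siPKM2 library. Levels are given throughout as CPM, counts divided by the library size after TMM scaling, unless TPM is named. Pkm, which encodes both splice forms PKM1 and PKM2 and is counted as 1 gene, stood at 2335 CPM in siNC replicate 1, 2746 in replicate 2 and 1674 in replicate 3, against 336, 541 and 309 CPM in the siPKM2 libraries in the same order. Its log2 fold change was -2.51 (SE 0.33, adjusted p = 0.0738 by edgeR's quasi-likelihood test) and -2.53 with the replicate number as a block (SE 0.132, adjusted p = 0.00932, edgeR), so that it passed 0.05 with the block and not without it. Pkm exons share 767 of 5001 bases with Gm49759 on the same strand, which was counted at 48.2 to 149 CPM in siNC and at 84.7 to 175 CPM in siPKM2, so reads between these genes are uncertain. Total counts lay between 22316996 and 25691029 per library. Replicate 2 stood apart in both groups. The summed level of 13 chondrocyte markers, all of them tested, was 57769, 11709 and 56379 CPM in siNC and 49671, 16325 and 48556 CPM in siPKM2, in the order of the replicate numbers. Summed macrophage markers (5 of 10 tested) were 10.5, 77.6 and 10.3 CPM in siNC and 21.6, 63.6 and 14.8 CPM in siPKM2. In replicate 2 of both groups Cd68 and Cd14 carried most of that sum. Of the other 8 markers, Lyz2 reached at most 3.63 CPM, Csf1r 2.14 CPM and Mrc1 1.84 CPM, and Ptprc, Adgre1, Itgam, C1qa and C1qb stayed at or below 0.438 CPM in every library. Synovial fibroblast markers summed to between 273 and 571 CPM in siNC and between 403 and 705 CPM in siPKM2, and osteoblast markers to between 34.7 and 423 CPM and between 43.7 and 171 CPM. The 10 interferon-stimulated genes summed to 61.0, 2004 and 88.3 CPM in siNC and to 1260.0, 3536 and 991 CPM in siPKM2. The NRF2 pathway results are therefore given with and without replicate 2. The part of cell composition or of the interferon genes in these results was not tested, and in bulk RNA fewer cells of a type and less RNA per cell cannot be told apart.

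Ordered by TPM, which corrects for gene length, the siNC libraries held most Hmox1 (153 ± 62.1 TPM, mean ± SD, n = 3), followed by Txnrd1 (90.5 ± 73.9), Nqo1 (74.2 ± 88.5), Nfe2l2 (69.0 ± 32.2), Keap1 (45.8 ± 4.24), Srxn1 (42.3 ± 26.2), Gclm (25.6 ± 14.5), Gclc (25.0 ± 25.9) and Gsr (22.8 ± 15.5). Slc7a11 was lowest at 2.86 ± 1.04 TPM, and only there were the 3 libraries all below those of the gene next in the order. The ranges of all other neighbours in siNC overlapped. In siPKM2, Hmox1 at 241.5 ± 46.8 TPM lay above Txnrd1 at 112 ± 35.8 TPM in all libraries, and Slc7a11 was again lowest at 3.71 ± 0.411 TPM. Gsr stood at 45.2 ± 12.3 TPM in siPKM2, close to Nqo1 at 45.6 ± 25.4 TPM, and the ranges of both overlapped.

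The regulators themselves differed little. Nfe2l2 (ENSMUSG00000015839, chr2:75675513-75704641, minus strand; positions here and below are those of GENCODE M21 on GRCm38) had levels of 76.9, 142 and 71.9 CPM in the siNC libraries, in the order of their numbers, and of 74.7, 146 and 72.6 CPM in the siPKM2 libraries. Replicate 2 was the highest library of both groups by a similar margin, and libraries with the same number lay almost at the same level. The log2 fold change was 0.01 (SE 0.382, adjusted p = 0.991, edgeR), and with the replicate block the standard error fell to 0.0756 around 0.00 (adjusted p = 0.972). Keap1, the substrate adaptor that marks NRF2 for degradation (ENSMUSG00000003308, chr9:21229730-21239361, minus strand), was measured at 83.4, 78.8 and 92.2 CPM in siNC and at 57.9, 79.6 and 72.0 CPM in siPKM2. It was lower in siPKM2 in pairs 1 and 3, level in pair 2, and the groups overlapped. Its log2 fold change was -0.28 (SE 0.155, adjusted p = 0.406, edgeR), -0.29 with the block (SE 0.122, adjusted p = 0.137), and -0.45 with the block and without replicate 2 (SE 0.0878, adjusted p = 0.00848). Keap1 exons share 510 of 4693 bases with the antisense gene Gm16754, which reached at most 4.65 CPM. Whether reads were counted by strand is not stated.

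**Figure D1:**
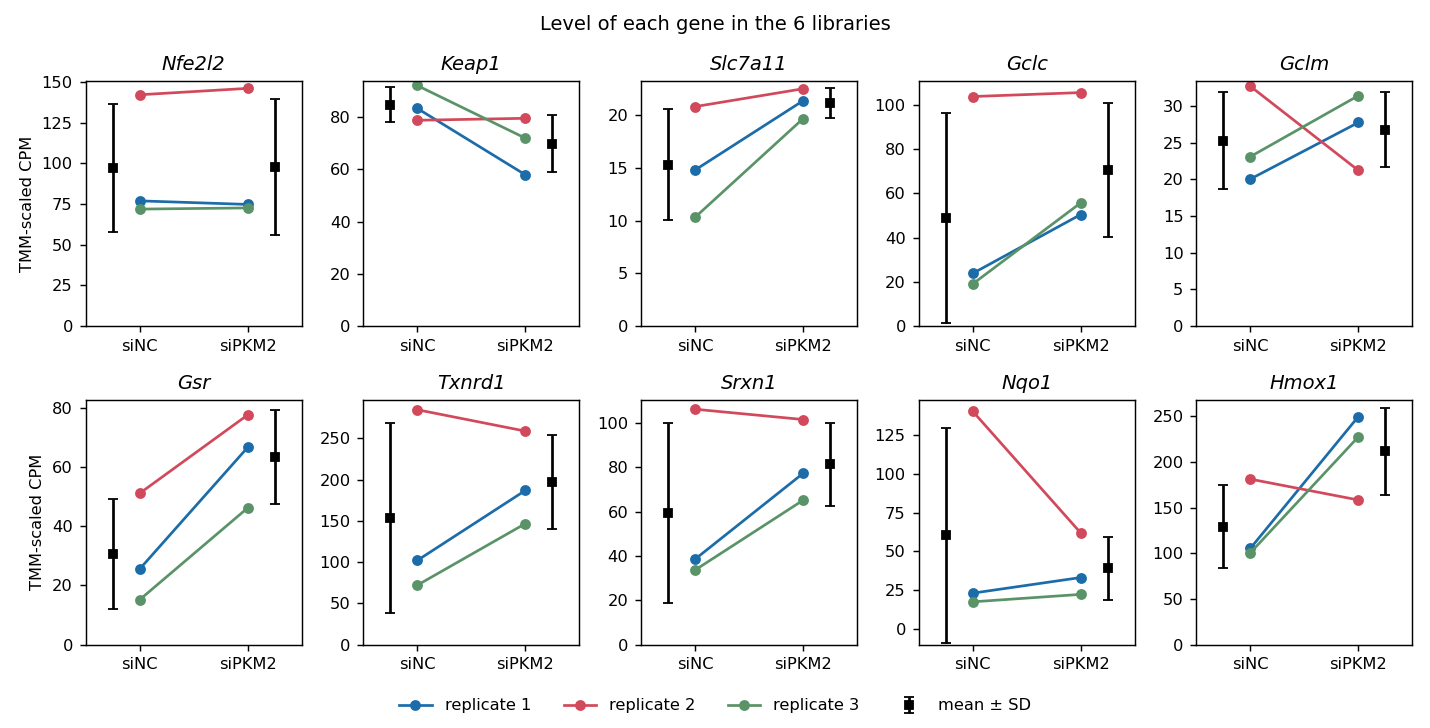
Level of each of the 10 genes in TMM-scaled CPM (vertical axes, 1 per gene) in the siNC and siPKM2 libraries, with lines joining libraries of the same replicate number and squares showing the mean ± SD of 3 libraries. Replicate 2 of siNC (red) lies above both other siNC libraries for every gene but Keap1, for Nqo1 at 140.6 CPM against 22.9 and 17.3 CPM.

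The glutathione genes included the member with the largest fitted change, Gsr, and the cystine importer. Slc7a11 encodes the xCT subunit that imports cystine for glutathione synthesis (ENSMUSG00000027737, chr3:49892526-50443614, minus strand). It was measured at 14.8, 20.8 and 10.3 CPM in siNC and at 21.3, 22.5 and 19.7 CPM in siPKM2. It was higher in siPKM2 in every pair, but siPKM2 replicate 3 lay below siNC replicate 2, so that the groups overlapped. The fitted log2 fold change was 0.47 (SE 0.268, adjusted p = 0.417, edgeR), and 0.52 with the block (SE 0.174, adjusted p = 0.0836). It was 0.26 without siNC replicate 3 and 0.76 without siNC replicate 2. Gclc encodes the catalytic subunit of glutamate-cysteine ligase, the enzyme of the rate-limiting step of glutathione synthesis (ENSMUSG00000032350, chr9:77754535-77794485, plus strand). Its levels were 23.7, 104 and 19.0 CPM in siNC and 50.4, 105.5 and 55.7 CPM in siPKM2. Both replicate 2 libraries stood at the same high level, while in pairs 1 and 3 siPKM2 was 2.12 and 2.94 times siNC. On the log2 scale the fold change was 0.53 (SE 0.689, adjusted p = 0.75, edgeR), and 0.88 with the block (SE 0.292, adjusted p = 0.0824). When single libraries were left out it ranged from 0.12 (without siPKM2 replicate 2) to 1.73 (without siNC replicate 2, adjusted p = 0.079).

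Gclm, the modifier subunit of the same ligase (ENSMUSG00000028124, chr3:122245557-122270732, plus strand), was measured at 20.0, 32.7 and 23.1 CPM in siNC and at 27.7, 21.2 and 31.4 CPM in siPKM2. Levels in siPKM2 were higher in pairs 1 and 3 and lower in pair 2, where siNC was 1.54 times siPKM2. The log2 fold change of 0.08 (SE 0.245, adjusted p = 0.898, edgeR) was smaller than its error, also with the block (0.10, SE 0.238, adjusted p = 0.786). Gclm exons share 296 of 6291 bases with a gene on the opposite strand, Gm17494, and 244 with a pseudogene, Gm6061. Gm17494 reached at most 2.36 CPM and Gm6061 at most 0.131 CPM, and reads between these genes are uncertain.

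Gsr encodes glutathione reductase, which returns oxidised glutathione to its reduced form with NADPH (ENSMUSG00000031584, chr8:33652523-33698163, plus strand). Its levels were 25.5, 51.1 and 15.1 CPM in siNC and 66.6, 77.6 and 46.2 CPM in siPKM2. Each siPKM2 library was above the siNC library of its number, by 2.62, 1.52 and 3.06 times, although siPKM2 replicate 3 lay just below siNC replicate 2. By edgeR the log2 fold change was 1.05 (SE 0.451, adjusted p = 0.293, edgeR), which did not pass the threshold, and it lay between 0.74 (without siNC replicate 3) and 1.65 (without siNC replicate 2) when single libraries were left out. With the replicate block it was 1.19 (SE 0.205, adjusted p = 0.0194), and Gsr was then the only one of the 10 genes called. When any replicate number was left out of that fit, the adjusted p lay between 0.000236 and 0.108.

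Of the thioredoxin genes, Txnrd1 encodes the cytosolic thioredoxin reductase (ENSMUSG00000020250, chr10:82833951-82897712, plus strand). It was measured at 102, 285 and 71.9 CPM in siNC and at 187, 259 and 147 CPM in siPKM2. The replicate 2 libraries were the highest of their groups, and siNC replicate 2 exceeded every siPKM2 library. Between groups the log2 fold change was 0.37 (SE 0.529, adjusted p = 0.774, edgeR), and 0.59 with the block (SE 0.239, adjusted p = 0.127). Leaving out single libraries moved it from 0.037 (without siNC replicate 3) to 1.19 (without siNC replicate 2). Srxn1 encodes sulfiredoxin, which restores overoxidised peroxiredoxins (ENSMUSG00000032802, chr2:152105516-152111376, plus strand). Its levels were 38.4, 106 and 33.5 CPM in siNC and 77.2, 101.5 and 65.1 CPM in siPKM2, the same order of libraries as for Txnrd1. In pairs 1 and 3 siPKM2 was 2.01 and 1.94 times siNC, and in pair 2 the levels were nearly equal. The fitted log2 fold change was 0.45 (SE 0.463, adjusted p = 0.67, edgeR), and 0.63 with the block (SE 0.228, adjusted p = 0.0995). Over single libraries left out it ranged from 0.18 to 1.18, at the same libraries as for Txnrd1.

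Nqo1, the quinone reductase often used as a readout of NRF2 (ENSMUSG00000003849, chr8:107388225-107403206, minus strand), varied most between siNC libraries. It was measured at 22.9, 140.6 and 17.3 CPM in siNC and at 33.1, 61.9 and 22.2 CPM in siPKM2. Replicate 2 of siNC was 6.98 times the mean of the other siNC libraries, and replicate 2 of siPKM2 was 2.24 times the mean of its group's others. Across libraries the log2 fold change was -0.63 (SE 0.846, adjusted p = 0.76, edgeR), and -0.12 with the block (SE 0.351, adjusted p = 0.827). It turned positive, to 0.96 (adjusted p = 0.259), when siNC replicate 2 alone was left out.

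Hmox1 encodes haem oxygenase 1, which degrades haem to biliverdin, iron and carbon monoxide (ENSMUSG00000005413, chr8:75093621-75100589, plus strand). It was measured at 105, 181 and 100.4 CPM in siNC and at 249.9, 158 and 228 CPM in siPKM2. The siPKM2 level was 2.37 and 2.27 times that of siNC in pairs 1 and 3, and in pair 2 it was lower, so that the groups overlapped. Its log2 fold change was 0.72 (SE 0.296, adjusted p = 0.28, edgeR) and its unadjusted p of 0.0487 was the only one under 0.05 among the 10 genes. With the block it was 0.75 (SE 0.302, adjusted p = 0.125). Hmox1 and Gclm were the only members that replicate 2 of siPKM2 held below both other siPKM2 libraries.

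**Figure D2:**
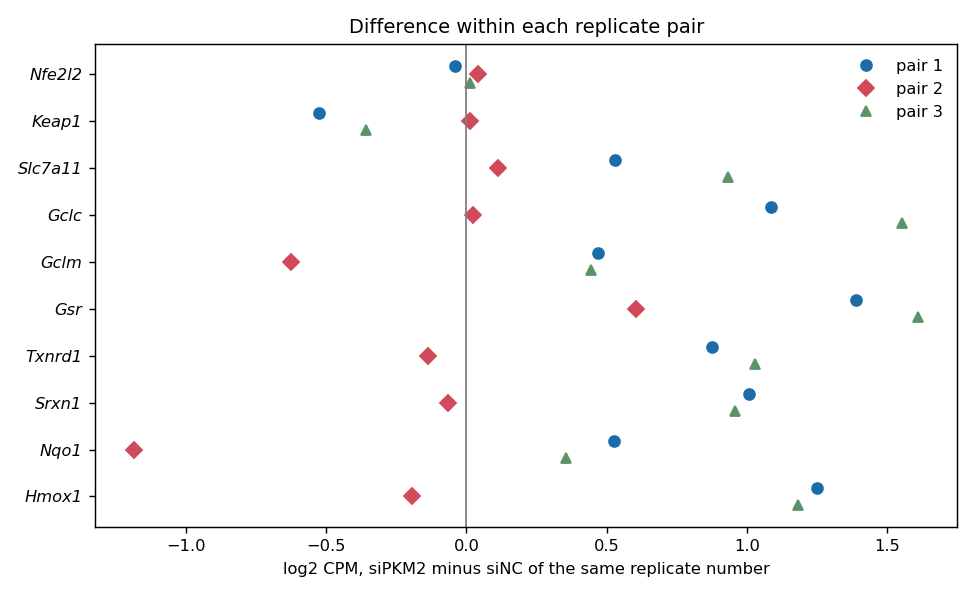
Difference in log2 CPM between siPKM2 and siNC libraries of the same replicate number (horizontal axis) for each of the 10 genes, with 1 symbol per pair. All 8 targets lie to the right of 0 in pairs 1 and 3, and in pair 2 they spread from -1.18 for Nqo1 to 0.60 for Gsr.

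As a group, no member of the 10 passed the study's threshold (adjusted p under 0.05 and a fold over 2) when 3 libraries were compared with 3 by edgeR. The background was 0% of 15269 genes. At an unadjusted p under 0.05, 1 member (Hmox1) against 17.6% of all genes was counted, and DESeq2's Wald test called 0 members against 2.79% of its 15419 genes. Exact permutation of the 6 libraries (two-sided, smallest possible p 0.1) gave p from 0.2 (Keap1, Hmox1, Slc7a11 and Gsr) to 1.0 (Nfe2l2). The groups did not overlap for 0 of the 10 members, against 24.3% of all genes. With the replicate block edgeR called 1 member, against 5.83% of all genes, and without the threshold on the fold it was still 1 of 10, against 23.1%. The median log2 fold change of the 8 targets was 0.46, and 0.61 with the block, beside -0.02 and -0.01 over all genes tested.

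The pairs gave different pictures of the targets. In pairs 1 and 3 all 8 targets were higher in siPKM2, with median differences of 0.94 and 0.99 in log2 CPM, and 39.7% of all genes were higher in both of these pairs. In pair 2, 3 of the 8 targets (Gsr, Slc7a11 and Gclc) were higher, against 50.5% of all genes, with a median difference of -0.10. Over all genes the medians were -0.02, 0.01 and 0.00 in pairs 1, 2 and 3. Those 3 targets were higher in all 3 pairs, as were 30.5% of all genes. The other 5 (Hmox1, Nqo1, Gclm, Txnrd1 and Srxn1) were higher in pairs 1 and 3 and lower in pair 2, a pattern of 9.13% of all genes. With 1 library per number and group, the difference between pairs has no test.

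The libraries that set pair 2 apart for the targets can be read from the levels. Replicate 2 of siNC was above both other siNC libraries for 8 of 8 targets (37.5% of all genes), and by over 2-fold for 5 of them, Nqo1, Gclc, Txnrd1, Srxn1 and Gsr (8.85% of all genes). Replicate 2 of siPKM2 was the highest of its group for 6 of the 8 targets (38.7% of all genes), but for 0 of them by over 2-fold (6.62% of all genes). Nfe2l2 was raised to the same degree in both replicate 2 libraries, 1.91 times the mean of the others in siNC and 1.98 times in siPKM2. The summed interferon-stimulated genes and the Cd68 and Cd14 levels were also highest in the replicate 2 libraries, and the summed chondrocyte markers lowest. Their part in the target levels was not tested.

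**Figure D3:**
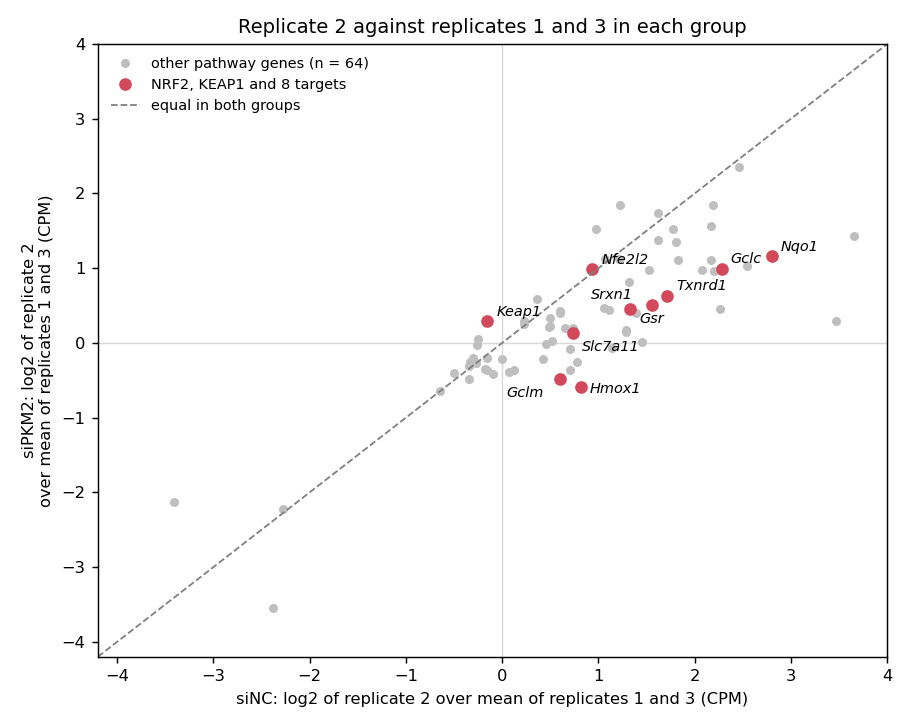
Log2 ratio of replicate 2 to the mean of replicates 1 and 3 in siNC (horizontal axis) and in siPKM2 (vertical axis), for the 10 genes (red) and 64 other genes of the pathway (grey). All 8 targets lie below the dashed line of equal ratios, while Nfe2l2 lies on it. For each target the ratio was larger in siNC (Nqo1, 6.98 times) than in siPKM2 (2.24 times). For Hmox1 and Gclm, replicate 2 of siPKM2 lay below the mean of the others (0.663 and 0.717 times).

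Without replicate 2 in either group, the fit with the replicate block called 3 members at a fold over 2, each higher in siPKM2, against 4.94% of the genes tested there. These were Hmox1 (log2 fold change 1.21, SE 0.0826, adjusted p = 0.000236), Gsr (1.48, SE 0.101, adjusted p = 0.000236) and Gclc (1.31, SE 0.13, adjusted p = 0.00073). Txnrd1 and Srxn1 fell just short of the fold threshold, at 0.94 and 0.97 with adjusted p of 0.000569 and 0.000445 by edgeR. Slc7a11 (0.72, adjusted p = 0.0107), Gclm (0.45, adjusted p = 0.0154) and Nqo1 (0.43, adjusted p = 0.0223) were smaller. In this fit, with no threshold on the fold, a setting chosen after seeing the data, 8 of 8 targets were higher, against 19.8% of the genes tested, and Keap1 was lower, against 19.3%. Nfe2l2 stood at -0.02 (adjusted p = 0.845). This fit holds 2 libraries per group and 1 residual degree of freedom, and 39.1% of all genes passed it. Without replicate 1 or without replicate 3, the same fit called 0 members, and it called 0% of the 15740 and 15545 genes then tested, so nothing about the members can be read from it.

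**Figure D4:**
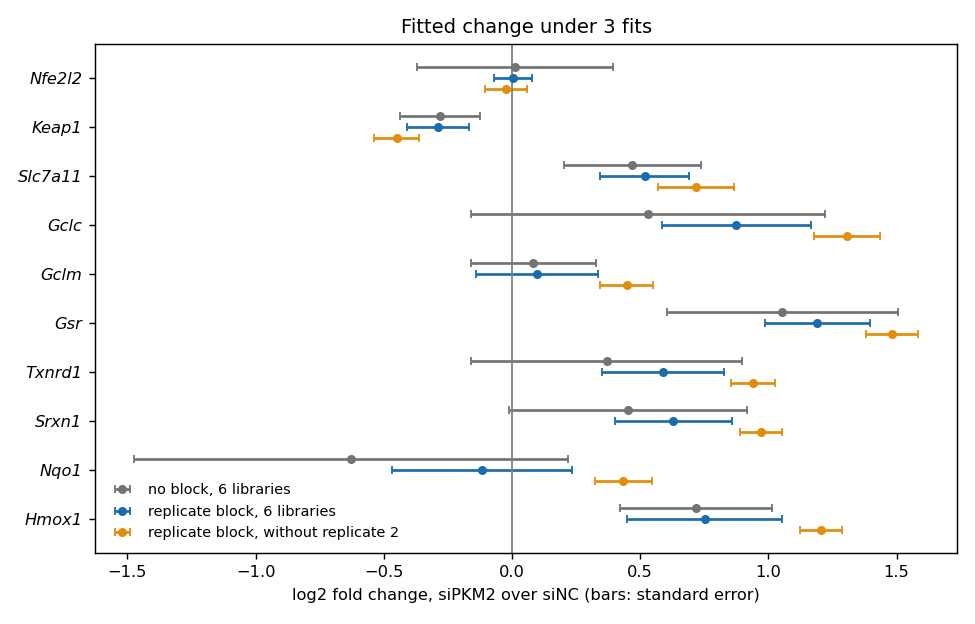
Fitted log2 fold change of siPKM2 over siNC (horizontal axis, bars show 1 standard error) for the 10 genes with no block, with the replicate block, and with the block and without replicate 2. Gsr lies at 1.05, 1.19 and 1.48, whereas Nqo1 moves from -0.63 through -0.12 to 0.43, and Nfe2l2 lies at 0.01, 0.00 and -0.02.

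Beyond the 10 genes, 70 further regulators and targets of the pathway were listed and 64 of them passed the count filter. With all 6 libraries and no block, 33 log2 fold changes were positive and 31 negative, with a median of 0.02. None was called without the block by edgeR, and 9 of the 64 had an unadjusted p under 0.05, against 17.6% of all genes. DESeq2 called 2, Taldo1 and Akr1c13, against 2.79% of its genes. With the block 16 of the 64 (25.0%) had an adjusted p under 0.05, close to the 23.1% of all genes, with 11 higher (17.2%, against 12.3%) and 5 lower (7.81%, against 10.8%). At a fold over 2 as well, 5 of the 64 passed, against 5.83% of all genes: Taldo1, Mafk and Akr1c13 higher, and Gstm1 and Slc40a1 lower. With the block and without replicate 2, more of them were higher: 27 of the 64 were higher and 7 lower with no threshold on the fold (19.8% and 19.3% of all genes), and 10 were higher and 2 lower at a fold over 2 (4.94% and 5.85% of all genes).

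Among 13 regulators and partners of NRF2, 5 rose and 0 fell with the block (12.3% and 10.8% of all genes). Nfe2l1, the related factor NRF1, was measured at 534, 437 and 443 CPM in siNC and at 825, 708 and 802 CPM in siPKM2 (log2 fold change 0.73, adjusted p = 0.0138, edgeR with the block). Its siPKM2 libraries all lay above the siNC libraries, which held for 8 of the 64 other pathway genes and 12% of all genes. Mafk, a small MAF partner of NRF2, was measured at 21.5, 48.3 and 15.4 CPM in siNC and 65.9, 80.2 and 56.1 CPM in siPKM2 (1.40, adjusted p = 0.0181), also without overlap. Bach1, a repressor that competes for the same elements, went from 40.5 ± 3.90 to 53.7 ± 6.56 CPM (mean ± SD, n = 3; 0.40, adjusted p = 0.0263, edgeR with the block). The other 2 were Syvn1 and Sqstm1, which encode an NRF2 ubiquitin ligase and the KEAP1-binding autophagy receptor p62.

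The Gsr and Txnrd1 enzymes depend on NADPH. Of 6 genes of the pentose phosphate pathway and of NADPH supply, 3 rose and 0 fell with the block (12.3% and 10.8% of all genes). The rest of this list did not pass. Taldo1 encodes transaldolase of the non-oxidative branch, which makes no NADPH itself. It was measured at 31.8, 50.9 and 29.5 CPM in siNC and at 135, 138 and 105 CPM in siPKM2. Its lowest siPKM2 library was above its highest siNC library, as for 12% of all genes. Its log2 fold change of 1.79 (SE 0.141, adjusted p = 0.00942, edgeR with the block) was larger than that of any of the 10 genes. G6pdx, which catalyses the first step of the pentose phosphate pathway, went from 101 ± 21.1 to 153 ± 14.5 CPM (0.62, adjusted p = 0.0164, edgeR with the block). Pgd, the next NADPH-producing enzyme, went from 142 ± 68.6 to 237 ± 43.2 CPM (0.83, adjusted p = 0.0242, edgeR with the block).

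Among 14 genes of glutathione use and conjugation 0 rose and 3 fell with the block (12.3% and 10.8% of all genes). Gstm1, a glutathione transferase of a family with near-identical members whose counts are therefore uncertain, went from 66.7 ± 33.7 to 29.6 ± 18.0 CPM (log2 fold change -1.27, adjusted p = 0.0133, edgeR with the block). Abcc1, an exporter of glutathione conjugates, went from 203 ± 159.6 to 104 ± 61.5 CPM (-0.85, adjusted p = 0.0166, edgeR with the block), and the third was Glrx. Of 17 detoxification and stress genes, 2 rose and 1 fell (12.3% and 10.8% of all genes). Those that rose were Akr1b3, an aldose reductase (51.0 ± 8.23 to 75.1 ± 17.0 CPM, 0.55, adjusted p = 0.0165, edgeR with the block), and Akr1c13 (0.765 ± 0.221 to 2.68 ± 0.708 CPM, 1.80, adjusted p = 0.0183), a low gene from a family with close copies. Cat, encoding catalase, fell from 105 ± 21.4 to 64.6 ± 5.72 CPM (-0.68, adjusted p = 0.0142, edgeR with the block). Of 8 iron and haem genes, only Slc40a1 (the iron exporter ferroportin) passed, lower in siPKM2 in every pair (-1.30, adjusted p = 0.0278, edgeR with the block). Of 6 thioredoxin and peroxiredoxin genes only Txn2 did, higher. Over all genes, 23.1% passed with the block in either direction.

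**Figure D5:**
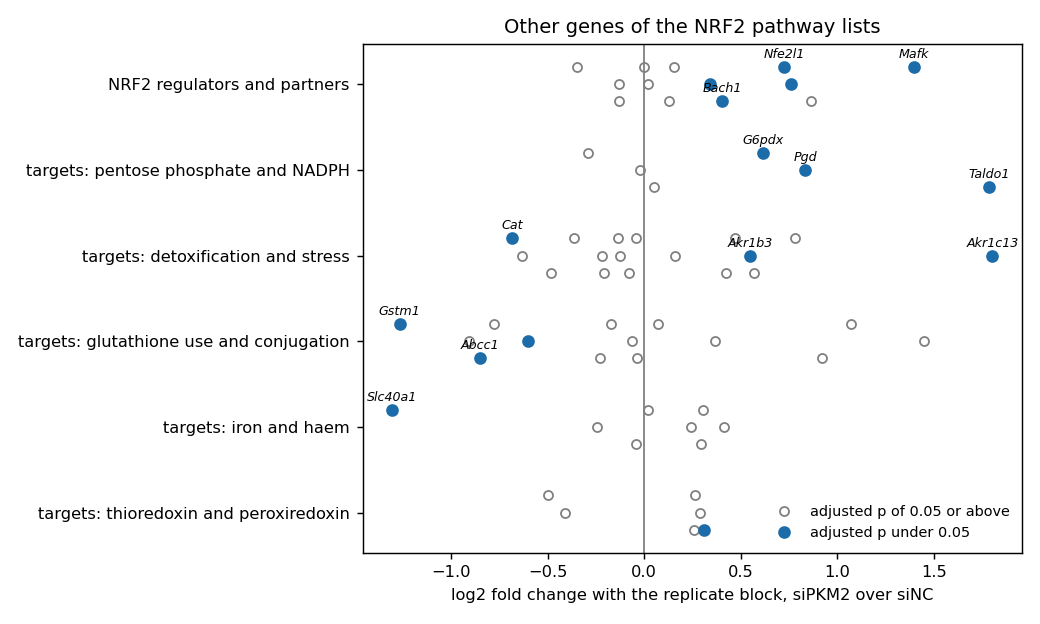
Log2 fold change of siPKM2 over siNC with the replicate block (horizontal axis) for the 64 other pathway genes tested, by list, with filled points for an adjusted p under 0.05. Of the 16 filled points, 11 lie to the right of 0, among them Taldo1 at 1.79 and Mafk at 1.40, and 5 to the left, among them Gstm1 at -1.27.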

How the data were processed

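For every gene and library the authors deposited estimated counts without normalization (between 11.3% and 13.8% of all values per library were fractional) and TPM values, scaled by the authors for gene length and library total; the TPM in the 6 sample files equal those of the joint table. The submitters' processing notes name edgeR and mm9; the aligner and counting method are not given in the sources used here. The table also holds the authors' comparison (a fold change, its log2, p-values and calls), which was not used. Positions came from GENCODE M21, which held 52083 (94.0%) of the identifiers.

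Rounded counts were fitted with edgeR 4.0.16, DESeq2 1.42.0 and limma 3.58.1 under R 4.3.3. Genes were kept by filterByExpr, scaled by TMM and compared by edgeR's quasi-likelihood test without a block, and p-values were adjusted by Benjamini-Hochberg over the 15269 genes. Genes were called at a fold over 2 and an adjusted p under 0.05. The scripts were tested on simulated data. Pair differences are log2 of scaled counts with 0.5 added. Depth was 22316996 to 25691029 counts per library. Each SD is the spread between 3 libraries. The SE of an edgeR fit is its absolute log2 fold change divided by the square root of the test's F. That F rests on the spread over all genes as well as on that of the gene itself. Genes near 1 CPM rest on few counts.

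Libraries were paired by replicate number, and the sample titles state no pairing beyond these numbers. In these data, deviations from the group means correlated at 0.626, 0.726 and 0.598 across genes for equal numbers. For unequal numbers they correlated at most at 0.127. Deviations of 3 libraries from their mean sum to 0 in each gene, so positive values for equal numbers push the others down. Blocked values are therefore printed beside the others.

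The members and lists were chosen with earlier results of these data known. Pkm, the 10 genes and, from the further pathway lists, up to 12 genes with the smallest p in the blocked fit were named with values. Syvn1, Sqstm1, Glrx and Txn2 were named after their values were seen. Alternatives were other scalings, filters and tools, limma on log2(TPM + 1) and log2(TPM + 0.1), each library or number left out, and, added after seeing the data, DESeq2 and limma with the block and the blocked fit without replicate 2 with no threshold on the fold.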

Additional observations from a re-analysis of the deposited data

How the results depend on the processing

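With 3 libraries per group and replicate 2 apart in both, the calls depended on the pairing and on replicate 2. With the replicate block edgeR called 890 genes, 3524 with no threshold on the fold, against 0 without the block; DESeq2 called 430 (1017 with the block), limma on log2(TPM + 1) with the block 454, upper-quartile factors 3, 9 with all genes kept that had a count, a minimum of 10 counts per library 3, and limma on log2(TPM + 0.1) 1. Leaving out single libraries gave 0 to 105 calls, 105 of them without siNC replicate 2. With the block, leaving out a replicate number gave 0 to 1639, the latter without replicate 2, and 5941 with no threshold on the fold. Members called at a fold over 2 were 1 (Gsr) with the replicate block in edgeR, DESeq2 and limma, and 3 in edgeR with the block and without replicate 2. With no threshold on the fold, edgeR called 1 with the block, and 9 with the block and without replicate 2. In DESeq2 with the block, Gclc (adjusted p = 0.0065), Hmox1 (0.0213), Srxn1 (0.0255) and Txnrd1 (0.0363) also lay under 0.05, at folds under 2. The share of all genes was not counted for DESeq2 with the block and no threshold on the fold. That fit already called 1017 genes at a fold over 2. Without the background share, nothing about the members can be read from these adjusted p-values. Further pathway genes called were 2 in DESeq2 (6 with the block), 5 with the block (16 with no threshold on the fold), 4 in limma with the block, 0 to 2 on leaving out single libraries (Mafk and Taldo1 without siNC replicate 2), and 12 with the block and without replicate 2 (10 higher, 2 lower), or 34 with no threshold on the fold (27 higher, 7 lower; 39.1% of all genes). Pkm passed the threshold in DESeq2 (-2.50, and -2.52 with the block), with the replicate block (-2.53), in limma with the block (-2.53), and with the block and without replicate 2 (-2.63), and single libraries left out moved it from -2.80 to -2.34, the latter without siNC replicate 2, where it also passed (adjusted p = 0.0495, edgeR). The blocked call of Pkm was lost without replicate 1 (adjusted p = 0.0642) and without replicate 3 (adjusted p = 0.0799).

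The sign turned for 3 members. Nfe2l2, at 0.01, was -0.050 with upper-quartile factors, -0.0417 in limma on log2(TPM + 1) with or without the block, -0.0424 on log2(TPM + 0.1), -0.023 with the block and without replicate 2, and -0.39 to 0.40 on leaving out single libraries, the lower bound without siPKM2 replicate 2 (-0.12 and -0.16 without siNC replicates 1 and 3). Nqo1, at -0.63, was 0.96 without siNC replicate 2, -1.12 without siPKM2 replicate 2, and 0.43 with the block and without replicate 2. Gclm, at 0.08, lay between -0.050 (without siNC replicate 1) and 0.32 on leaving out single libraries, with -0.040 without siPKM2 replicate 3, and at -0.092 and -0.078 with the block and without replicates 1 and 3. The causes were not tested. For the other 7 members every alternative kept the sign.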

Other observations

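Gclm was the member whose deposited TPM and counts were least alike across libraries. Its TPM per CPM was 0.893, 1.30 and 0.719 in siNC replicates 1, 2 and 3 and 0.888, 1.03 and 0.804 in siPKM2. For Gclc the same ratio lay between 0.452 and 0.530 in all 6 libraries. Gclm in siNC replicate 2 stood at 42.4 TPM against 17.9 and 16.6 TPM in the other siNC libraries, a wider gap than between its CPM values of 32.7, 20.0 and 23.1.

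The higher level in replicate 2 of siNC extended to further pathway genes. For 23 of the 64 tested it exceeded both other siNC libraries by over 2-fold (8.85% of all genes), and replicate 2 of siPKM2 did so in its group for 10 of the 64 (6.62% of all genes).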
